A study of Mus musculus with 8 samples.

Results

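The genes described here are those by which a cell finds RNA or DNA in its own cytosol. The set was chosen by name and comprised 8 genes. Ddx58, Ifih1 and Dhx58 encode the RNA sensors RIG-I, MDA5 and LGP2, and Mavs encodes the adaptor on mitochondria that RIG-I and MDA5 act through. Mb21d1 encodes the DNA sensor cGAS, Tmem173 encodes STING, the adaptor that answers it, Trex1 encodes a nuclease that clears cytosolic DNA and Ifi204 encodes a DNA-binding protein of the PYHIN family. A row could be matched to 6 of the 8 genes among 24625 rows, 1 row each. Trex1 and Ifi204 had no matched row and were not analysed here.

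The samples were neutrophils from the lungs of wild type (WT) female C57BL/6J mice, which the labels give as 6 to 12 weeks old. One group received Streptococcus pneumoniae (SP), a cause of bacterial pneumonia, and the other phosphate-buffered saline (PBS). Both were instilled by the intratracheal route on the left side, 2.3 µl for each g of mouse. Lungs were taken after 24 h and cells carrying Ly6G, a surface protein of mouse neutrophils, were pulled out with magnetic beads, so the RNA is that of whatever the beads held. Each group had 4 samples, each measured on its own Affymetrix Mouse Gene 1.1 ST array, and no other genotype or agent was involved.

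In the RNA arm of this pathway, RIG-I and MDA5 bind double-stranded RNA, signal by way of MAVS on the mitochondrial surface and start kinases that switch on interferon genes. In the DNA arm, cGAS binds DNA and makes a cyclic dinucleotide that STING, a protein of the endoplasmic reticulum, responds to, and the same kinases follow. Most of the sensor genes are themselves known to be induced by interferon. Streptococcus pneumoniae is a bacterium that stays mostly outside cells, and its DNA is known to reach the cytosol of macrophages that take it up.

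Promoter sequences are shown because the RNA sensors rose together while the adaptor Mavs fell. Windows of 300 bases, from 250 bases before to 50 after the start of a gene, were taken from RefSeq on the mouse assembly GRCm38.p6. They were given for Ddx58, Ifih1, Mavs and Mb21d1 among the measured genes. The windows lie at chr4:40239776-40240075 on the minus strand for Ddx58, chr2:62646206-62646505 on the minus strand for Ifih1, chr2:131233813-131234112 on the plus strand for Mavs and chr9:78443188-78443487 on the minus strand for Mb21d1. Each is written 5′ to 3′ along its gene, and capitals mark matches to the core of the interferon-stimulated response element, GAAANNGAA or on the other strand TTCNNTTTC.
Ddx58: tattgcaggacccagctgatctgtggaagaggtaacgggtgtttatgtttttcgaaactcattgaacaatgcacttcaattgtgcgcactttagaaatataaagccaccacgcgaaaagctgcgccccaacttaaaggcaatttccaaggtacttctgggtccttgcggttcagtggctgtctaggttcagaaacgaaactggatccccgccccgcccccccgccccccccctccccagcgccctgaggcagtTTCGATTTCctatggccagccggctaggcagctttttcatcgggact
Ifih1: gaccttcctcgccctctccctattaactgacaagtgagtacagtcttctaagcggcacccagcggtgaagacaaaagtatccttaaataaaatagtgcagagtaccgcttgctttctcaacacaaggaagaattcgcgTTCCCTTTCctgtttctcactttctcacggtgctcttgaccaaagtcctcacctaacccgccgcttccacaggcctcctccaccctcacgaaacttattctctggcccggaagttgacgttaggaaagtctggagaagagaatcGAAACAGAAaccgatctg
Mavs: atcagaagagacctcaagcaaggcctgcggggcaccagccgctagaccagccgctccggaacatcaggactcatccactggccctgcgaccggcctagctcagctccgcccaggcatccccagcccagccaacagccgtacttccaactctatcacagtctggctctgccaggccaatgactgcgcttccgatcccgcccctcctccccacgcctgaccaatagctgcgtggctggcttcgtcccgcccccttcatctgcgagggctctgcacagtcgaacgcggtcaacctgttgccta
Mb21d1: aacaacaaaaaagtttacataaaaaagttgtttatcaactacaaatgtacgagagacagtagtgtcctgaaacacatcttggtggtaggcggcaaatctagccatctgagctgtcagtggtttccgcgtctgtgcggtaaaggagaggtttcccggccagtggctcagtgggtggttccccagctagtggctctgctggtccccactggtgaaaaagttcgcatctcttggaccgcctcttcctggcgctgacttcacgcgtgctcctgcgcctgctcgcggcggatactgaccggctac
The match in Ddx58 lies from base 4 to base 12 after the start. Ifih1 has matches from base -112 to base -104 and from base 33 to base 41. Mavs and Mb21d1 have none in these windows. The motif, searched on both strands, occurs in 8.56% of all 32851 windows of that table. A match is a description of the letters and not a binding site.

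The deposited values are log2 expression from robust multi-array averaging (RMA), and a difference of 1 log2 unit is 2-fold. Each row was tested for a difference of SP from PBS by limma and was called at an adjusted p of at most 0.05. Of the 6 measured genes, 6 were called at some size, against 44.1% of all rows. Among them, 4 were at least 2-fold higher in SP, where 6.37% of all rows were, and 1 was at least 2-fold lower, where 11.3% of all rows were. The groups did not overlap in 5 of the 6, as in 49% of all rows. With 44.1% of all rows called, a call alone sets no gene apart, and the sizes of the differences are given below. Calls of any size were nearly even, 5306 higher and 5554 lower, and the median difference over all rows was 0.10. Calls at 2-fold leaned to lower values in SP, with 1568 rows higher and 2773 lower, and this split turned to 2375 higher and 1896 lower when each array was centred on its median. Array medians were 0.28 log2 units lower in SP on average, and centring adds that amount to each difference below.

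Ifih1 and Dhx58 had the largest differences of the set. Ifih1, whose product MDA5 binds long double-stranded RNA, had values of 9.36, 8.96, 9.37 and 9.37 in PBS replicates 1 to 4 and of 12.07, 11.93, 12.34 and 11.78 in SP replicates 1 to 4. All SP samples lay far above all PBS samples, and PBS replicate 2 stood below the other PBS samples, which lay close together. The mean rose from 9.27 ± 0.21 to 12.03 ± 0.24 (SD, n = 4), a difference of 2.76 log2 units (SE 0.15, 95% interval 2.43 to 3.10) or 6.79-fold, with a limma adjusted p of 7.42e-06. That difference was higher than in 99.1% of all rows.

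Dhx58, whose product LGP2 binds RNA and tunes the other RNA sensors, had values of 8.51, 7.70, 9.06 and 8.97 in PBS and of 11.30, 11.21, 11.51 and 11.21 in SP. The SP samples were close to each other, and the PBS samples spread over more than a log2 unit with replicate 2 at the bottom. The mean rose from 8.56 ± 0.62 to 11.31 ± 0.14 (SD, n = 4), a difference of 2.75 (SE 0.28, 95% interval 2.11 to 3.38) or 6.71-fold, with a limma adjusted p of 0.000133. Its interval contained the whole of that of Ifih1.

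Ddx58, whose product RIG-I binds short RNA with a phosphorylated end, had values of 10.87, 10.21, 11.04 and 11.04 in PBS and of 12.42, 12.43, 12.50 and 12.32 in SP. PBS replicate 2 was again the lowest, and the 4 SP samples were nearly equal. The mean rose from 10.79 ± 0.39 to 12.42 ± 0.074 (SD, n = 4), a difference of 1.62 (SE 0.18, 95% interval 1.21 to 2.04) or 3.08-fold, with a limma adjusted p of 0.000216. In a limma test against a difference of 1 log2 unit in place of 0, the adjusted p of Ddx58 was 0.0601, so a rise was called and a rise beyond 2-fold was not.

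Mb21d1, the gene of the DNA sensor cGAS, also rose. Its values were 5.65, 5.80, 5.69 and 5.64 in PBS and 7.40, 7.56, 8.13 and 7.78 in SP. The PBS samples were tightly grouped, and SP replicate 3 was the highest. The mean rose from 5.70 ± 0.074 to 7.72 ± 0.31 (SD, n = 4), a difference of 2.02 (SE 0.15, 95% interval 1.68 to 2.36) or 4.06-fold, with a limma adjusted p of 2.91e-05. Y-linked genes, which female mice lack, served as a measure of empty signal and read 4.33 to 4.90 over 3 genes, a range below all values of Mb21d1. Low signals on arrays may be compressed, which was not tested.

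Mavs, the adaptor of the RNA arm, fell. Its values were 8.99, 8.94, 8.47 and 8.62 in PBS and 7.09, 7.34, 6.44 and 7.85 in SP. No SP sample reached the lowest PBS sample, but the SP samples spread widely, from replicate 3 at the bottom to replicate 4 at the top. The mean fell from 8.76 ± 0.25 to 7.18 ± 0.59 (SD, n = 4), a difference of -1.58 (SE 0.28, 95% interval -2.21 to -0.94) or 2.98-fold lower, with a limma adjusted p of 0.00237. The difference was lower than in all but 5.32% of rows. Tested against a change of 1 log2 unit, Mavs was not called, with an adjusted p of 0.357.

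Tmem173, the gene of the adaptor STING, differed by less than 2-fold. Its values were 9.94, 9.75, 9.65 and 9.79 in PBS and 10.33, 10.61, 9.88 and 10.58 in SP. The groups overlapped, because SP replicate 3 lay below PBS replicate 1. The mean went from 9.78 ± 0.12 to 10.35 ± 0.34 (SD, n = 4), a difference of 0.57 (SE 0.16, 95% interval 0.20 to 0.94) or 1.48-fold, with a limma adjusted p of 0.0229. The call was lost in 6 of the 8 fits without 1 array, those without PBS replicate 2, 3 or 4 or SP replicate 1, 2 or 4, where the adjusted p lay between 0.0507 and 0.0566 and the difference between 0.48 and 0.58.

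**Figure D1:**
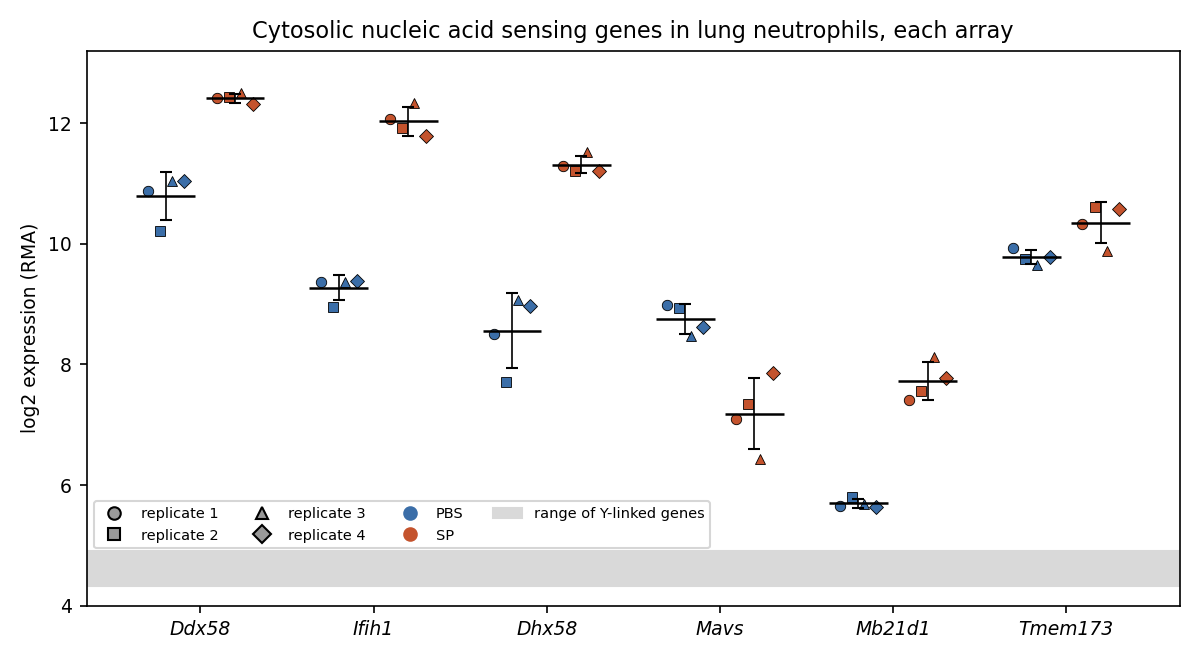
Log2 expression (RMA) of the 6 measured sensing genes on each of the 8 arrays, with PBS in blue, SP in orange and 1 marker shape per replicate number. Horizontal lines are group means, bars are 1 SD (n = 4) and the grey band is the range of 3 Y-linked genes, 4.33 to 4.90. The groups are apart in 5 genes, with Mavs the only one of these that is lower in SP, and they overlap in Tmem173.

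The same arrays tended to be the extremes. SP replicate 3 was the highest SP sample for Ddx58, Ifih1, Dhx58 and Mb21d1 and the lowest for Mavs and Tmem173, an extreme in 6 of 6 genes. How often this array is an extreme over all rows was not counted. It also had the lowest SP mean level of every list of genes around the sensors described below, so being an extreme is not particular to these genes. SP replicate 4 was the lowest for the 3 RNA sensors and the highest for Mavs. PBS replicate 2 was the lowest PBS sample for the 3 RNA sensors and the highest for Mb21d1. With PBS replicate 2 and SP replicate 3 both left out, a choice made after seeing the values, the differences were 2.56 for Ifih1, 2.39 for Dhx58, 1.40 for Ddx58, 1.92 for Mb21d1, -1.27 for Mavs and 0.72 for Tmem173, and the counts of 4 higher and 1 lower were the same.

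**Figure D2:**
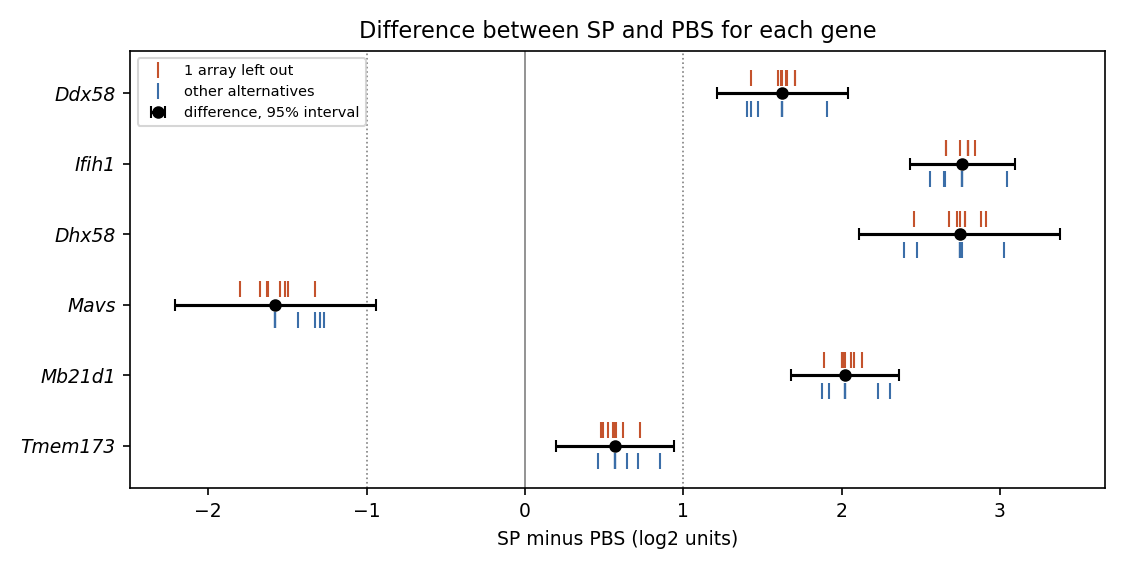
Difference between SP and PBS in log2 units for each gene, with black points and bars for the value and its 95% interval from limma. Orange ticks are fits without 1 array, blue ticks are other processing alternatives, and dotted lines mark 2-fold. No tick crosses 0, the ticks of Mavs run from -1.80 to -1.27 and those of Tmem173 from 0.46 to 0.85.

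Since the sensors and adaptors changed by different amounts, the gap between their log2 values was followed on each array. In the RNA arm the sensors rose and Mavs fell, while in the DNA arm Mb21d1 (2.02) and Tmem173 (0.57) both rose. The gaps were chosen after these differences were seen. The mean change of each gap follows from the differences already given for its genes and is no separate finding. No share of other row pairs is given for comparison. Signals of different rows are not on a common scale, so only the change of this gap between groups is given. The gap between Ifih1 and Mavs widened by 4.34 log2 units in SP, which is a 20.3-fold change of their ratio. The gap between Dhx58 and Mavs widened by 4.32, and that between Ddx58 and Mavs by 3.20 (9.20-fold). In these 3 gaps the SD over 4 arrays was 0.40 to 0.83 in PBS and 0.66 to 0.82 in SP, and no SP array overlapped a PBS array.

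In the DNA arm, the gap between Mb21d1 and its adaptor Tmem173 widened by 1.45 log2 units (2.74-fold), with an SD of 0.16 in PBS and 0.60 in SP. Between the adaptors, Tmem173 gained 2.15 log2 units on Mavs (4.43-fold). Among the RNA sensors, Ifih1 gained 1.14 on Ddx58 (2.20-fold) and Dhx58 gained 1.12 (2.18-fold). The groups did not overlap in any of these 4 gaps, which were also chosen with the differences known. No test was made of the gaps.

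**Figure D3:**
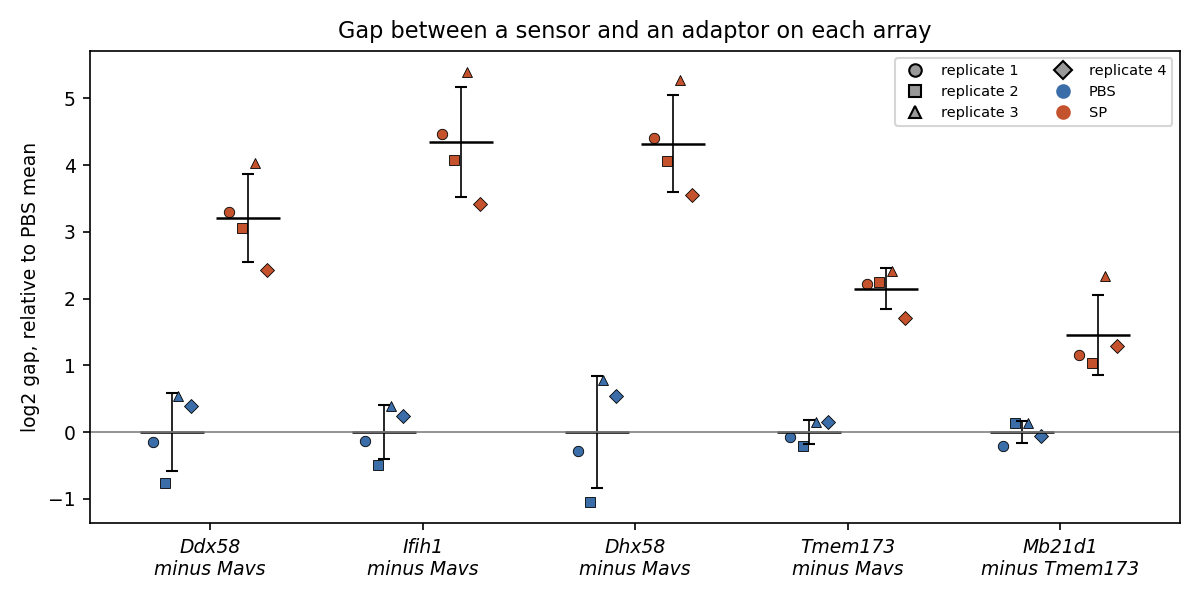
Difference of log2 values between a sensor and an adaptor, or between the adaptors, on each array, set relative to the PBS mean of that gap (0 on the vertical axis). Lines are group means, bars 1 SD (n = 4), PBS is blue and SP orange. All SP arrays lie above all PBS arrays in each gap. The mean shift runs from 1.45 for Mb21d1 minus Tmem173 to 4.34 for Ifih1 minus Mavs. It follows from the differences of the single genes.

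Markers of neutrophils and of other lung cells were measured on the same arrays, since the beads may hold other cells too. The methods describe a check of purity for the pneumonia samples and give no purity for the PBS samples. All 11 neutrophil markers of a list were measured, with a mean level of 11.99 to 12.30 in PBS and 11.29 to 12.54 in SP. The level of 12.54 was that of SP replicate 3, and the other SP samples read 11.29 to 11.71, below all PBS samples. At any size 4 markers were called lower and 0 higher, where 44.1% of all rows were called in either direction. The median difference was -0.45, and 1 marker, Padi4, was at least 2-fold lower. Beside each count of markers at 2-fold here stand the shares of all rows, 11.3% lower and 6.37% higher. Markers of several other cell types were higher in PBS. Ciliated cell markers were lower by at least 2-fold in 6 of 6 (mean level 9.53 to 10.48 in PBS, 6.74 to 7.49 in SP), club cell markers in 4 of 5 (12.33 to 13.11 and 10.01 to 11.17) and endothelial markers in 6 of 8 (10.40 to 11.39 and 8.75 to 9.89). Alveolar type 2 cell markers were lower in 5 of 8 (12.03 to 12.47 and 10.42 to 11.57), B cell markers in 5 of 7 (7.53 to 8.42 and 6.05 to 7.05) and alveolar macrophage markers in 5 of 8 (8.82 to 9.48 and 7.68 to 8.37). Chil3, the brightest alveolar macrophage marker, went the other way and was called higher in SP (0.97, limma adjusted p = 0.0216). In the B cell list Fcer2a was higher by 0.82 without a call (limma adjusted p = 0.0719). Fibroblast markers were lower in 2 of 7 (8.41 to 9.25 and 7.27 to 9.33).

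Mavs fell with these markers, and SP replicate 3, its lowest sample, also had the lowest mean level of the ciliated, club, endothelial, alveolar type 2, B cell and alveolar macrophage lists and the highest of the neutrophil list. The fibroblast (7.27), monocyte and interstitial macrophage (8.17) and dendritic cell (5.55) lists were at their lowest SP level there too. So was every list of genes around the sensors described below, among them the PYHIN family (10.47), whose genes rose. The T cell, NK cell and eosinophil lists were not. A low level in SP replicate 3 is thus not particular to Mavs and these cell types. The part of other cells in the fall of Mavs was not tested. In a bulk sample, fewer cells of a type and less RNA per cell cannot be told apart. PBS replicate 2, the lowest PBS sample for the RNA sensors, had the lowest level of the neutrophil list in PBS (11.99) and the highest of the ciliated (10.48), club (13.11), endothelial (11.39) and alveolar type 2 lists (12.47). The part of these in its low sensor values was not tested.

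Beside the genes that rose, the lists of other immune cells read as follows. Markers of monocytes and interstitial macrophages were at least 2-fold higher in 2 of 10, beside 6.37% of all rows. At that size 0 were lower, beside 11.3% of all rows. Their mean level was 8.41 to 9.19 in PBS and 8.17 to 9.63 in SP. In SP replicate 3 this list was at its lowest, 8.17, while the RNA sensors and Mb21d1 were at their highest. In PBS replicate 2 the list was at its lowest in PBS, 8.41. The RNA sensors were also lowest there among PBS samples, and Mb21d1 was highest. The part of monocytes and interstitial macrophages in the rise of the sensors was not tested. Dendritic cell markers had a mean level of 5.75 to 6.14 in PBS and 5.55 to 5.79 in SP, T cell markers of 5.38 to 6.05 and 5.50 to 6.59, NK cell markers of 5.01 to 5.27 and 5.07 to 5.52, and eosinophil markers of 5.20 to 6.02 and 5.29 to 5.63. At 2-fold, 1 of 9 dendritic cell markers was higher and 1 lower, and 1 of 5 eosinophil markers was lower. No T cell or NK cell marker reached 2-fold. The shares of all rows at that size were 6.37% higher and 11.3% lower.

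The genes around the sensors were followed in 8 lists, with 124 of 130 listed genes measured. Over all of them, 36 (29%) were at least 2-fold higher in SP, beside 6.37% of all rows, and 6 (4.84%) were lower, beside 11.3% of all rows. The same shares of all rows stand beside each count at 2-fold of a list below. Beside each count at any size, called or not called, stand 44.1% of all rows called, 5306 rows higher and 5554 lower. The median difference was 0.25, against 0.10 over all rows. Lists were described by counts and medians, without a test of a list. They were drawn up with earlier results of these data known, which limits what a share above that of all rows can show. With PBS replicate 2 and SP replicate 3 both left out, the counts were 32 and 6. Scaling moved the lower genes, which numbered 2 after centring the arrays and 3 after another quantile normalization.

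The list of the RNA arm with the highest median held the proteins that gather at MAVS, with their kinases and transcription factors. In this list of 20 genes, 15 reached 2-fold higher and 0 at least 2-fold lower by limma, with a median difference of 1.21. The lower count was 1 without PBS replicate 3 or without SP replicate 4. Ikbke, which encodes the kinase IKKε, had 7.58, 7.40, 7.28 and 7.45 in PBS and 12.45, 12.36, 12.38 and 12.31 in SP. Both groups were tight and lay far apart, and the difference was 4.95 (SE 0.083), or 30.9-fold, with a limma adjusted p of 7.25e-08. Tbk1, the related kinase shared by both arms, rose by 2.54 (SE 0.12, limma adjusted p = 4.35e-06). It was also among the genes most like Ifih1 over the 8 arrays.

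Further along the same list, Ifit3, an interferon-induced protein that binds MAVS and TBK1, rose 9.26-fold (limma adjusted p = 1.83e-05). Casp8, a protease of death receptor signalling and the gene of the list with the highest signal, rose 2.96-fold (8.32e-06). The ubiquitin ligase genes Traf3 and Traf6 rose 5.07-fold (1.02e-05) and 4.55-fold (1.07e-05). Of the transcription factors, Irf7, itself an interferon-induced gene, rose by 2.38 (0.00101), and Irf3, which is present before stimulation, differed by 0.13 with a 95% interval of -0.22 to 0.47 (limma adjusted p = 0.489). After centring, Irf3 was called at 0.41 (adjusted p = 0.0278), and after another quantile normalization at 0.29 (0.0476). Genes lower in SP, none by 2-fold, were Fadd (-0.91), Traf5 (-0.87) and Mfn1 (-0.56). Traf5 lost its call after another quantile normalization (adjusted p = 0.0566) and Mfn1 after centring (0.0541). Of these genes, Mfn1 encodes a mitochondrial fusion protein and the others adaptors of receptor signalling.

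Of 17 partners of the RNA sensors, 6 were at least 2-fold higher and 2 lower, with a median of 0.26. The lower count was 1 when PBS replicate 1 or 2 or SP replicate 3 was left out. Oasl1, a relative of the enzymes that start RNA decay and a repressor of Irf7 translation, had 9.64, 8.09, 10.45 and 10.16 in PBS and 12.54, 12.52, 12.75 and 12.57 in SP. The PBS samples spread over more than 2 log2 units with replicate 2 lowest, and all SP samples lay above them, a difference of 3.01 (SE 0.45, limma adjusted p = 0.00106). Ddx60, a helicase that aids RIG-I, rose 5.21-fold (0.000493), Eif2ak2, the kinase PKR that stops translation on double-stranded RNA, rose 3.93-fold (0.000172), and Oasl2, the brightest of the list, rose 2.03-fold (0.0123). The lower genes were Prkra, an activator of PKR (-1.17, limma adjusted p = 0.000106), and the helicase gene Ddx1 (-1.07, 0.0197), which lost its call without PBS replicate 1 (adjusted p = 0.0549).

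Of 20 brakes on the RNA arm, 2 (10%) were at least 2-fold higher, beside 6.37% of all rows, 0 lower at that size and 4 lower at any size by limma, 9 were not called, and the median was 0.18. Without SP replicate 1, 2 or 3, 1 gene was at least 2-fold lower. The largest difference was that of Nlrc5, known as a brake on MAVS signalling in some cells and as the activator of class I antigen presentation genes. It had 7.76, 6.86, 6.75 and 6.69 in PBS and 11.73, 11.70, 11.35 and 11.18 in SP. The groups lay over 3 log2 units apart, and the difference was 4.47 (SE 0.25), or 22.2-fold, with a limma adjusted p of 9.29e-06. Cyld, a deubiquitinase, rose 2.04-fold (limma adjusted p = 0.00115) and was under 2-fold without PBS replicate 2 or SP replicate 3. Pcbp2, which sends MAVS to degradation and had the highest signal of the list, differed by -0.04 with an interval of -0.20 to 0.12 (0.628), and its sign depended on scaling, with 0.24 after centring (0.0443) and -0.29 after another quantile normalization (0.0128).

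In the DNA arm, 14 sensors other than cGAS gave 2 genes at least 2-fold higher, 1 lower and 6 not called, with a median of 0.28. Zbp1, a sensor of Z-form nucleic acid, had 9.51, 8.24, 9.88 and 9.71 in PBS and 12.30, 12.25, 11.75 and 11.97 in SP. PBS replicate 2 was lowest, the groups were apart, and the difference was 2.73 (SE 0.34, limma adjusted p = 0.000383). Aim2, the DNA sensor of an inflammasome, rose 4.38-fold (0.00296). Prkdc, a DNA repair kinase, fell by 1.06 (SE 0.16, limma adjusted p = 0.000983) and was no longer beyond 2-fold without PBS replicate 2 or SP replicate 3 or after centring. Hmgb1, a chromatin protein with the highest signal of this list, differed by -0.06 with an interval of -0.24 to 0.13 (0.545), and by 0.22 after centring and -0.24 after another quantile normalization, neither called.

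The PYHIN family, to which Ifi204 belongs, had the highest median of the 8 lists. Of 12 listed genes 7 had a row, 6 of these were at least 2-fold higher, 7 were called, and the median was 3.46. Ifi205 had 8.15, 6.93, 7.11 and 7.20 in PBS and 12.83, 12.55, 12.59 and 12.79 in SP, a difference of 5.35 (SE 0.25), or 40.7-fold, with a limma adjusted p of 4.12e-06. Ifi213 rose 24.9-fold (1.04e-05), Pyhin1 19.4-fold (1.93e-06) and Ifi207, the brightest, 9.44-fold (3.41e-05). These genes are close relatives of each other, so a probe may read more than 1 of them and the values of single members are uncertain. They are not a measure of Ifi204.

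Around STING, 3 of 20 regulators were at least 2-fold higher and 2 lower, with a median of -0.12. Usp18, which removes ubiquitin-like tags and restrains interferon signalling, rose 5.65-fold (limma adjusted p = 3.88e-06), and Trim56, a ubiquitin ligase that acts on STING, rose 3.25-fold (1.02e-05). Zdhhc1, a palmitoyltransferase that binds STING, had 10.52, 10.98, 9.96 and 10.32 in PBS and 8.34, 8.46, 7.08 and 8.56 in SP. All SP samples were lower, SP replicate 3 most of all, and the difference was -2.34 (SE 0.35, limma adjusted p = 0.00105). Stim1, a calcium sensor that holds STING in the endoplasmic reticulum, was lower by a difference of -1.29 (3.30e-05). Tmed2, a trafficking protein with the highest signal of the list, differed by -0.26 (0.0171), without a call when PBS replicate 4 or SP replicate 1 was left out, and by 0.019 after centring and -0.50 after another quantile normalization (adjusted p = 0.00131).

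Genes that remove or alter nucleic acid, the group of Trex1, gave 3 of 14 at least 2-fold higher and 1 lower, with a median of -0.037. Dnase1l3, a secreted nuclease of DNA in particles, had 5.33, 4.70, 5.12 and 5.11 in PBS and 8.67, 8.44, 8.34 and 7.30 in SP. PBS values were at or just above those of Y-linked genes, with replicate 2 inside that range, and all SP values were higher (limma adjusted p = 8.54e-05). The difference of Dnase1l3 as measured was 3.12 log2 units (SE 0.29), or 8.71-fold, with a limma interval of 2.47 to 3.78. Fits without 1 array gave 2.96 to 3.42. With PBS replicate 2 raised to the highest Y-linked value, 4.90, the difference of the means was 3.07, or 8.41-fold. Adar, which edits double-stranded RNA so that MDA5 does not bind it, rose 3.73-fold (0.00011), and Dnase2a, the lysosomal DNase II, rose 2.17-fold (0.00237). Samhd1, which breaks down nucleotides, had the highest signal and rose 1.45-fold (0.0125). Enpp1, which degrades the messenger made by cGAS, was the lower gene at -1.05 (0.024), with no call without PBS replicate 1, 2 or 4 or SP replicate 2. The count of lower genes was 0 without PBS replicate 1 or 4 or SP replicate 2 and 2 without SP replicate 1. Of 13 subunits of RNA polymerase III, which turns DNA into a ligand of RIG-I, 0 reached 2-fold by limma. At smaller sizes 4 were called higher and 5 lower, beside 44.1% of all rows called at any size in either direction. Polr1c, the brightest, differed by -0.57 (0.0119), without a call after centring (-0.29, adjusted p = 0.0564). After centring, 3 of these subunits were at least 2-fold higher, and 1 was at least 2-fold higher without PBS replicate 3, SP replicate 3 or SP replicate 4, and 1 lower without SP replicate 1 or 4.

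**Figure D4:**
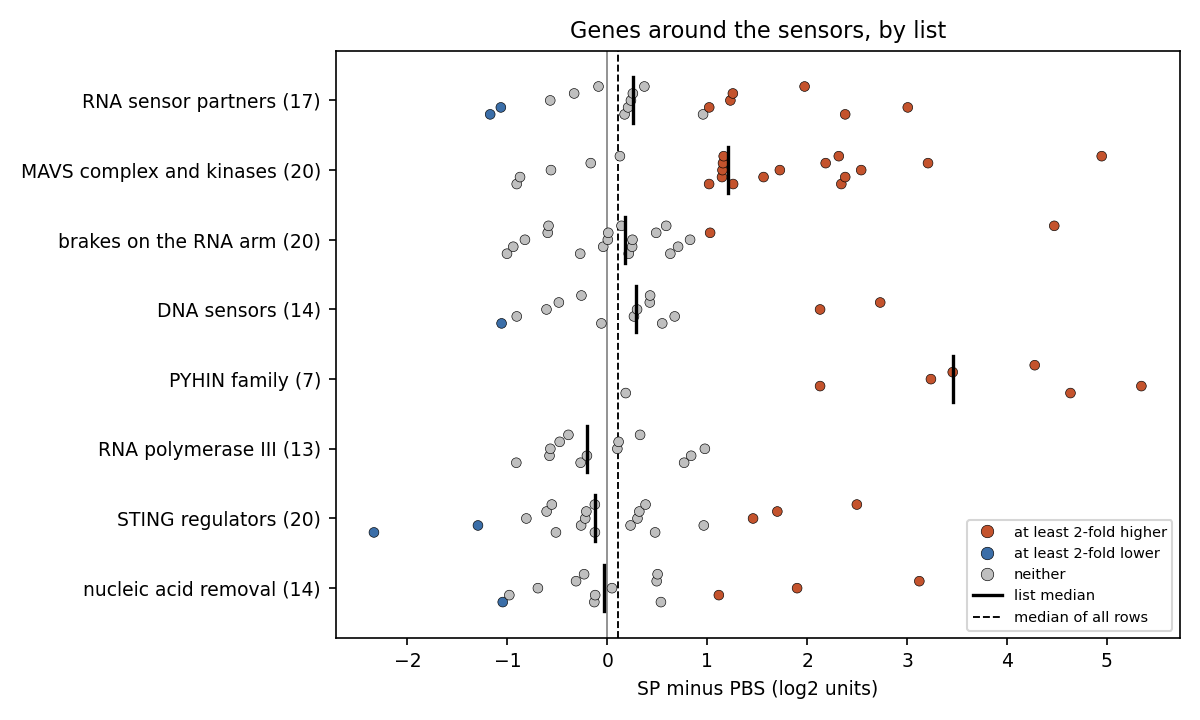
Difference between SP and PBS in log2 units for each measured gene of the 8 lists, with the number measured in brackets. Orange points are at least 2-fold higher with an adjusted p of at most 0.05, blue points at least 2-fold lower and grey points neither, short black lines are list medians and the dashed line is the median of all rows, 0.10. The medians of the PYHIN family (3.46) and of the MAVS complex and kinases (1.21) stand apart from those of the other lists, which lie between -0.20 and 0.28.

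The motif shown in the promoters of Ddx58 and Ifih1 was counted in these lists as a description, and of 2 motifs searched it alone is given. A promoter window was given for 101 of the 124 genes. The core of the interferon-stimulated response element lay in 11 of 30 genes that were at least 2-fold higher (36.7%), in 0 of 5 that were lower and in 5 of 66 that were not called at 2-fold (7.58%), while 9.76% of all 27025 genes with a window hold it. Among the 11 were Ddx60, Eif2ak2, Ifit3, Cyld, Adar, Ifi205, Ifi207 and Ifi213. Since the PYHIN genes are close relatives, their windows may not be separate cases.

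Each sensing gene was set beside all named genes by the root mean square difference of gene-centred log2 values over the 8 arrays, where 0 would be the same profile. The nearest to Ddx58 were Trafd1 (0.0726) and Morc3 (0.0851), to Ifih1 Tagap (0.112) and Tbk1 (0.156), and to Dhx58 Ntng2 (0.0631) and Pfkfb3 (0.124). Mavs was nearest to Decr2 (0.0494) and Paics (0.0748), Tmem173 to Zfp593 (0.0790) and Ddx54 (0.101), and Mb21d1 to Trim14 (0.152) and Fndc3a (0.155). The measure reflects the size of the change between groups as well as the spread of single arrays.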

How the data were processed

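Expression in lung neutrophils was measured on 8 Affymetrix Mouse Gene 1.1 ST arrays, grouped and numbered by sample title. Per the study's methods, the authors made the deposited log2 values by RMA, with correction for background, GC content and probe sequence before quantile normalization and median polish, and with custom probeset-to-gene mappings. Values are therefore relative, and differences are read for the same row between arrays. A genome build for the values is not given in the sources used here. The processing notes also name Expression Console and Partek. The number of arrays limits the precision. The study describes each sample as taken from a mouse, and the labels number replicates without naming animals. The microRNA arrays were not analysed here.

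Row identifiers were matched to symbols of NCBI RefSeq (GRCm38.p6), under which Tmem173 is Sting1 and Mb21d1 is Cgas. A symbol was found for 19915 of 24625 rows. SP and PBS were compared with limma 3.58.1 (R 4.3.3, lmFit and eBayes, two-sided, no covariates, Benjamini-Hochberg over all rows). A call needed an adjusted p of 0.05, with 1 log2 unit where 2-fold is stated. The test was checked on simulated data. Figures used Python 3.11.15 and matplotlib 3.10.9.

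The genes, their lists and the rules were chosen with earlier results of these data known. Named from each list were the 3 largest changes beyond 2-fold without overlap and the gene of highest mean, and for each sensing gene the 2 nearest by profile. Irf3, Irf7, Traf3, Traf6, Fadd, Traf5, Mfn1, Prkra, Ddx1, Stim1 and Enpp1 were added after their values were seen. Alternatives were the methods' t-test, a robust prior with trend, array weights, a block for the replicate number, centring of each array on its median, a further quantile normalization, rows of low mean left out, limma treat, each array left out in turn, and PBS replicate 2 and SP replicate 3 both left out, which was added after seeing the data. The result of 1 further motif search is not reported here.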

Additional observations from a re-analysis of the deposited data

Results flagged for a closer look

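Groups of 4 samples were searched for a sample far from the other 3, with Dixon's ratio above its 95% critical value for 4 samples. The sensing genes and the list genes named by rule gave 68 groups and 6 such samples, where chance gives about 1 in 20 groups. Among the sensing genes, Ifih1 had 8.96 in PBS replicate 2, with the nearest PBS sample at 9.36 (ratio 0.975). The same PBS sample stood apart for Aim2, at 7.09 against 8.33 (0.858), and for Hmgb1, at 11.03 against 10.82 (0.955). PBS replicate 1 stood apart for Nlrc5, at 7.76 against 6.86 (0.844), and for Trim56, at 9.05 against 9.21 (0.838). SP replicate 3 stood apart for Zdhhc1, at 7.08 against 8.34 (0.851). All values are log2 expression.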

How the results depend on the processing

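The differences of Ifih1, Dhx58 and Mb21d1 kept their direction and call under all 17 alternatives, with ranges of 2.56 to 3.04, 2.39 to 3.03 and 1.88 to 2.30 log2 units. Ddx58 ranged from 1.40 to 1.91, Mavs from -1.80 to -1.27 and Tmem173 from 0.46 to 0.85, without a change of sign. Against a difference of 1 log2 unit (limma treat), Ddx58 (1.62, adjusted p = 0.0601), Mavs (-1.58, 0.357) and Tmem173 (0.57, 1) were not called, which left 3 sensing genes called higher and 0 lower, and 23 list genes higher and 1 lower. The lower list genes, 6 in the report, numbered 2 after centring and 3 after another quantile normalization. With each array left out in turn, differences ranged from 1.43 to 1.71 for Ddx58, 2.66 to 2.85 for Ifih1, 2.46 to 2.91 for Dhx58, -1.80 to -1.33 for Mavs, 1.89 to 2.13 for Mb21d1 and 0.48 to 0.73 for Tmem173, with 4 sensing genes higher and 1 lower throughout and 32 to 39 list genes higher and 4 to 9 lower. Counts of single lists were within 1.5 times in 142 of 176 cases and moved by at most 3 genes in the other 34. Of 429 values of 39 list genes, 411 kept direction and side of the threshold, 11 lost and 3 gained a call, and 4 changed sign, which were Pcbp2 (0.24), Hmgb1 (0.22) and Tmed2 (0.019) after centring and Hmgb1 (0.0065) with PBS replicate 2 and SP replicate 3 both left out. Centring adds the 0.28 log2 units between the array medians to each difference, so any gene between -0.28 and 0 turns positive by construction, and this is no check of a single gene. All rows called numbered 10860, and 18255 after centring and 1572 by treat.

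Deviations from the group means of same-numbered arrays correlated across rows at 0.016, 0.030, 0.350 and -0.274. Arrays of different numbers gave -0.363 to 0.283. Whether the replicate numbers pair the samples cannot be settled from these values, since deviations within a group of few arrays depend on each other. With the replicate number as a block, 9842 rows were called, and the differences were the same, with adjusted p of 0.00177 for Ddx58, 0.000204 for Ifih1, 0.000826 for Dhx58, 0.00456 for Mavs, 0.0236 for Tmem173 and 0.000587 for Mb21d1. No sensing gene had several rows, so the choice of row had no alternative.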
